A study of Mus musculus with 8 samples.

Results

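The immediate early and CREB-responsive genes described here are 10 genes, Fos, Fosb, Jun, Junb, Egr1, Atf3, Crem, Ier2, Ier3 and Gadd45b, chosen by symbol from the 16593 genes named on the array. The choice was made with earlier results of these data known. The 10 genes were read by 14 of 25697 probes, 5 of them for Crem and 1 for each other gene. RNA came from mouse brown adipocytes of an immortalized line, differentiated for 8 days in every sample. In 4 samples the cells had then been kept for 18 h with 10 µM of the compound Z16078526, and in 4 samples for 18 h with its vehicle, DMSO. The study asked what the compound does to brown adipocytes, and the comparison made was Z16078526 against DMSO. The labels do not state that samples of a group were separate cultures, so the spread behind the p-values may be technical.

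Immediate early genes are transcribed soon after a signal reaches the cell, without new protein synthesis, and most of their messages are short-lived. Growth factor and stress signals reach them through MAP kinases, and cAMP, the messenger of the adrenergic signal that activates brown fat, reaches them through protein kinase A and the transcription factor CREB. Fos and Jun proteins pair to form the transcription factor AP-1. CREB binds the cAMP response element, and ATF3 and products of Crem bind related sites.

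Start-site sequences bear on how these genes are switched on, and those of a pair that rose (Fos and Atf3) and of a pair that fell (Jun and Gadd45b) carry the letters that follow. Each is the 250 bases before the gene's start in RefSeq, build GRCm38.p6, written 5′ to 3′ on the gene's strand. The array files name no build of their own. Capitals mark matches to the motifs searched.
Fos, chr12:85473640-85473889, plus strand: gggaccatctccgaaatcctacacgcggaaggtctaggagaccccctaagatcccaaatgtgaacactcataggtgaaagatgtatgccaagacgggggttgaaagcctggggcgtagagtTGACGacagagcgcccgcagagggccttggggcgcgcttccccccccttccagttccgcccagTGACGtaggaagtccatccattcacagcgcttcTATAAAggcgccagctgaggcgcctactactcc
Atf3, chr1:191183334-191183583, minus strand: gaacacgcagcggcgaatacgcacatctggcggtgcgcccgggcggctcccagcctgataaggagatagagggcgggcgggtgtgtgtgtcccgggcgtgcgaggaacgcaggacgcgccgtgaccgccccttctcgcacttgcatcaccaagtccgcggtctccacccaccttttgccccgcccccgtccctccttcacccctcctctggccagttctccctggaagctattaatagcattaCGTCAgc
Jun, chr4:95052223-95052472, minus strand: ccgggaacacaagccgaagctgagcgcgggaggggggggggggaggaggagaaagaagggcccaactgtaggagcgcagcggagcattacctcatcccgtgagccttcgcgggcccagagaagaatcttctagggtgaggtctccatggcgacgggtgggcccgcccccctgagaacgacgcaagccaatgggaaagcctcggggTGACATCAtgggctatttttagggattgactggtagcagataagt
Gadd45b, chr10:80929841-80930090, plus strand: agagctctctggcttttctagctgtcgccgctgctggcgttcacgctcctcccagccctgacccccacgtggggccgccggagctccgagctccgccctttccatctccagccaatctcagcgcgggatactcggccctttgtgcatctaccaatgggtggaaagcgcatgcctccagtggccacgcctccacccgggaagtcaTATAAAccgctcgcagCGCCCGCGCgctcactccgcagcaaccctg

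The motifs searched, on both strands, were the full cAMP response element TGACGTCA, its core TGACG, the AP-1 motif TGANTCA, the variant TGACATCA known from the Jun promoter, the EGR motif GCGNGGGCG and the TATAAA box. The full element contains the core. RefSeq sequences were searched for 7 of the 10 genes, which leaves Ier2, Egr1 and Crem. Egr1 and Crem lie on chromosome 18, and genes of the 10 on that chromosome were left out of the search. The core TGACG lay in 4 of the 7, Fos, Fosb, Junb and Atf3, against 17.8% of 32851 start-site sequences of the same length. In Fos it began at 129 and at 66 bases before the start (positions -129 and -66), in Fosb at -60, in Junb at -106, and in Atf3 at -7 on the opposite strand. TGACATCA lay in Jun alone of the 7, at -45, against 2.93% of all. The EGR motif lay in Fosb at -50 and in Gadd45b at -30 on the opposite strand, against 4.7% of all, and TATAAA in Fos at -33 and in Gadd45b at -46, against 12.4% of all. The full element (1.55% of all) and the AP-1 motif (6.75% of all) were not among these letters in any of the 7. Ier3, which also rose, held a match to none of the motifs, and Fosb, which held the core, did not rise. A match is a description of the sequence, and the windows hold no more than these bases. Whether a motif goes with a direction of change was not tested.

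Of the 10 genes, 5 rose with Z16078526 (Ier2, Atf3, Fos, Crem and Ier3) and 2 fell (Jun and Gadd45b), by limma at an adjusted p under 0.05 over all genes. Across the array 15.2% of genes passed the same test, 7.97% higher and 7.19% lower. Because earlier results were known when the 10 genes and the lists below were chosen, setting their shares beside these is a description. It is not a test of the genes or the lists. All 10 genes were above the measuring floor on every array of at least 1 group, as were 8544 genes in all, and of those 8544 genes 29.4% passed. Ier2 met this only through the Z16078526 arrays, where it was high, and 9 of the 10 genes were above the floor on all 8 arrays. A gene can enter the 8544 through its higher group alone, and all 2516 genes that passed are among them. The median log2 difference was 0.41 for the 10 genes, 0 for all genes tested and 0.02 for the 8544. Values are array intensities, a brightness on a linear scale. For the log2 scale intensities were set to at least 16, so a log2 value of 4 means at or below this floor, where 5504 genes lay on all 8 arrays. Fold changes and differences below are on this log2 scale, each from the brightest probe of the gene.

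**Figure D1:**
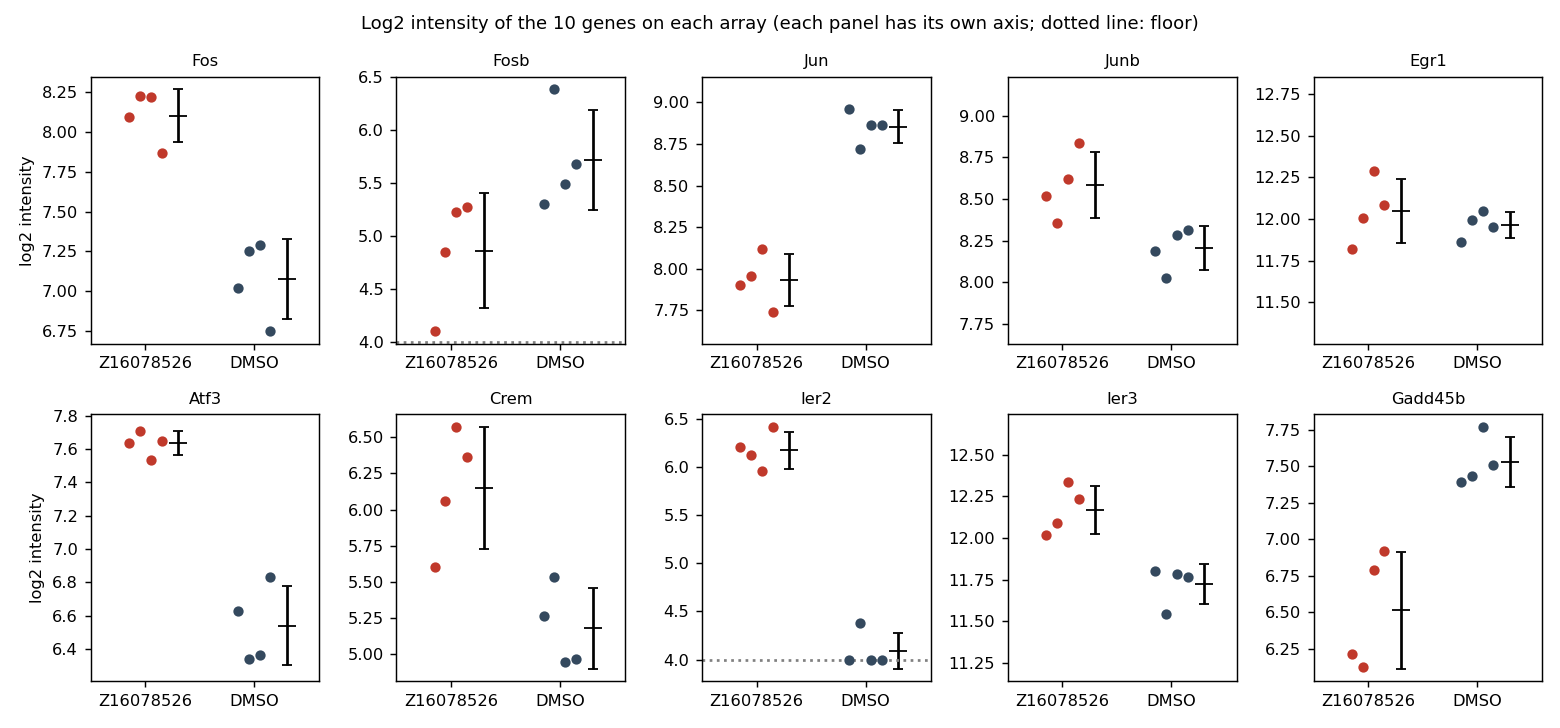
Log2 intensity (vertical axes, each panel on its own scale) of the 10 genes on each of 4 Z16078526 and 4 DMSO arrays. Points are arrays, bars are the mean ± SD (n = 4), and the dotted line is the floor of 4. Points of the groups do not overlap in 9 panels, and overlap in the panel of Egr1.

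Fos, the founding member of the FOS family and a partner of Jun in AP-1, rose. Its intensities were 272, 299, 297 and 234 on the Z16078526 arrays 1 to 4, against 130, 152, 156 and 108 on the DMSO arrays 1 to 4. Every Z16078526 array lay above every DMSO array. The mean log2 intensity was 8.10 ± 0.17 with Z16078526 and 7.08 ± 0.25 with DMSO (SD, n = 4 each). Fos rose 2.03-fold (log2 difference 1.02 ± 0.14 SE, adjusted p = 0.00552), and ranked 90 among the log2 increases of 16593 genes.

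Jun, which encodes the partner of Fos that can also pair with itself, went the opposite way. Its intensities were 239.8, 249, 279 and 214 with Z16078526, against 499, 422, 466 and 465 with DMSO. The highest Z16078526 array lay well below the lowest DMSO array. Mean log2 intensities were 7.93 ± 0.16 with Z16078526 and 8.85 ± 0.10 with DMSO (SD, n = 4 each). Jun was 1.89-fold lower (log2 difference -0.92 ± 0.09, adjusted p = 0.00147).

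Junb encodes a Jun family member that is a weaker activator than Jun. Its intensities were 367, 328, 394 and 457 with Z16078526, against 292, 261, 312 and 319 with DMSO. The groups did not overlap, but the lowest Z16078526 array and the highest DMSO array lay close together. The log2 difference of 0.38 ± 0.11 did not pass (adjusted p = 0.0787). It passed when genes not above 16 on at least 4 arrays were left out (adjusted p = 0.0163), or not above 50 (0.0111), with robust variance (0.0308) and without genes at the floor on every array (0.0373), in a range of 0.0111 to 0.174 over 20 alternatives.

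Fosb, another FOS family gene, is known for strong induction by cAMP and by nerve activity. Its intensities were low, at 17.2, 28.8, 37.5 and 38.8 with Z16078526, against 39.6, 83.7, 45.0 and 51.3 with DMSO. The groups were separated only by the narrow gap between the Z16078526 array 4 and the DMSO array 1. The log2 difference was -0.85 ± 0.35, with SDs of 0.54 and 0.47. It did not pass in limma after adjustment over all genes (adjusted p = 0.186, unadjusted p = 0.0457). With a floor of 50 the difference was -0.19 (adjusted p = 0.391), and among genes above 16 on at least 4 arrays the adjusted p was 0.0292.

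Egr1, a zinc finger factor induced by serum and growth factors, was measured at high signal. Its intensities were 3609.8, 4113, 4991 and 4337 with Z16078526, against 3716, 4085, 4226 and 3954 with DMSO. The lowest and the highest of the 8 arrays both belonged to Z16078526. The log2 difference was 0.09 ± 0.10 (adjusted p = 0.818), and it did not pass under any of 20 alternatives (adjusted p 0.309 to 1).

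Atf3 encodes a factor of the ATF and CREB family that is induced by many kinds of stress and often represses its targets. Its intensities were 199, 209.5, 186 and 201 with Z16078526, against 98.8, 80.9, 82.2 and 114 with DMSO. The Z16078526 arrays lay within a narrow band, all above the DMSO arrays. Mean log2 intensities were 7.63 ± 0.07 with Z16078526 and 6.54 ± 0.24 with DMSO (SD, n = 4 each). Atf3 rose 2.13-fold (log2 difference 1.09 ± 0.13, adjusted p = 0.00247), and ranked 64 among the increases of 16593 genes.

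Crem encodes CREM, a relative of CREB, and an internal promoter of the same gene gives ICER, a cAMP-induced repressor. Of its 5 probes, all with the same RefSeq accession in the probe table, ILMN_1242622 was the brightest over all 8 arrays and stands for the gene. On the DMSO arrays alone it was not, with a mean log2 intensity of 5.18 against 5.52 for ILMN_2964986 and 5.20 for ILMN_2602899, so this choice favoured a probe that was high with Z16078526. This probe read 48.7, 66.6, 95.3 and 82.4 with Z16078526, against 38.4, 46.4, 30.9 and 31.3 with DMSO. The groups did not overlap, with a gap of a few units between the lowest Z16078526 array and the highest DMSO array. Crem rose 1.96-fold by this probe (log2 difference 0.97 ± 0.25, adjusted p = 0.0469), which is close to the threshold. Tested among all 25697 probes, where 12.7% passed, the same probe missed it (adjusted p = 0.0596). With the mean of the Crem probes in its place the change was 1.31-fold (log2 difference 0.39, adjusted p = 0.0284). That mean takes in ILMN_1242622 itself and a probe at the floor on all 8 arrays, so it is not separate evidence. No Crem probe passed when tested singly.

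The other Crem probes were dim and overlapped between the groups. ILMN_2964986 read 35.8, 65.4, 69.8 and 59.0 with Z16078526, against 39.8, 53.4, 50.3 and 41.2 with DMSO (log2 difference 0.28 ± 0.25). ILMN_2602899 read 47.6, 31.7, 60.4 and 42.9 with Z16078526, against 43.9, 45.4, 29.0 and 31.7 with DMSO (0.27 ± 0.25). ILMN_1216758 read 41.6, 30.8, 8.93 and 35.0 with Z16078526, against 21.5, 19.1, 32.6 and 16.7 with DMSO (0.42 ± 0.35). None of these 3 probes passed (adjusted p = 0.713 for each), and ILMN_2747264 was below 0 on all 8 arrays. Which of the CREM and ICER transcripts each probe reads is not given in the sources used here.

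**Figure D2:**
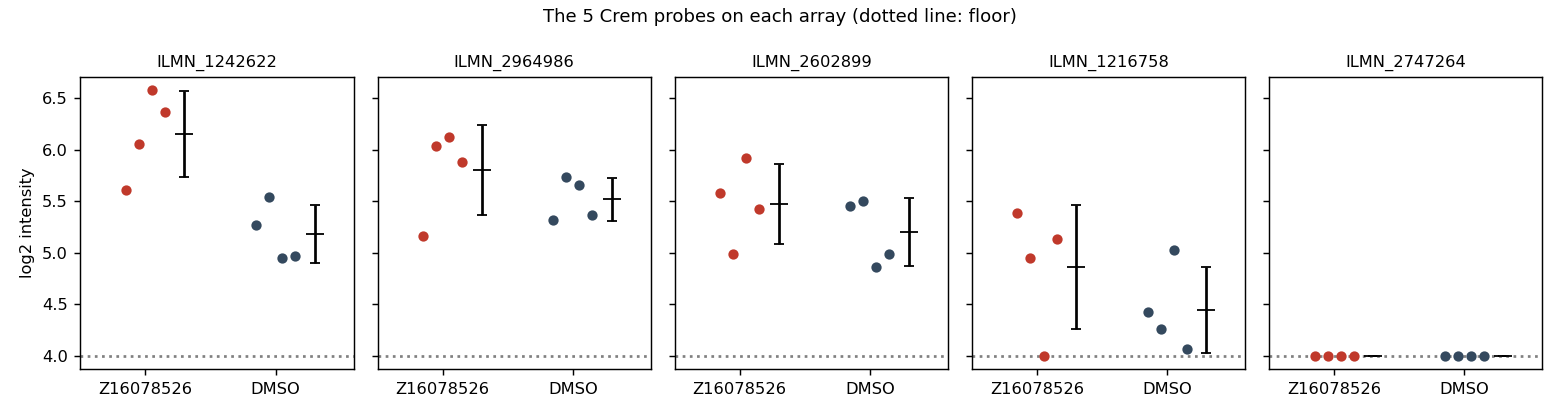
Log2 intensity (vertical axis) of the 5 Crem probes on 4 Z16078526 and 4 DMSO arrays. Points are arrays, bars are the mean ± SD (n = 4), and the dotted line is the floor of 4. The groups are apart in the panel of ILMN_1242622 alone, and ILMN_2747264 lies at the floor on all arrays.

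Ier2, an immediate early gene whose product acts in the nucleus on transcription, had the largest log2 difference of all 16593 genes. Its intensities were 73.5, 69.6, 62.0 and 85.4 with Z16078526, against 7.19, 20.8, 14.1 and 12.3 with DMSO. All 4 Z16078526 arrays lay clear of the floor of 16. Of the DMSO arrays only array 2 lay above it, and only slightly. The log2 difference was 2.08 ± 0.13 (4.22-fold, adjusted p = 0.000509), measured for 3 DMSO arrays against the floor. Those 3 values were set equal, so the DMSO spread came from array 2 alone. The SE and p therefore do not measure the spread of DMSO arrays below the floor. For the same difference the SE was 0.29 with robust variance. The size of the rise depended on the floor: with a pseudocount of 16 in place of the floor the change was 3.02-fold (rank 5), and with a floor of 50 it was 1.44-fold (rank 595, adjusted p = 0.0165). The rise passed under all 20 alternatives (adjusted p 1.05e-06 to 0.0165), and with the replicate block, which is not among the 20 (0.0193). As Ier2 has 1 probe, other probe rules left its values as they were.

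Ier3, a gene induced by stress and NF-kB whose product affects cell survival, was measured at high signal. Its intensities were 4150.3, 4355, 5178 and 4812 with Z16078526, against 3571, 2987, 3520.0 and 3486 with DMSO. All Z16078526 arrays lay above all DMSO arrays. Ier3 rose 1.36-fold (log2 difference 0.45 ± 0.09, adjusted p = 0.0189).

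Gadd45b, which encodes a small protein that binds stress-activated MAP kinase kinases and takes part in growth arrest, fell. Its intensities were 74.2, 69.9, 110.7 and 121 with Z16078526, against 168, 173, 219 and 183 with DMSO. The Z16078526 arrays fell into a lower and a higher pair, and all lay below the DMSO arrays. Mean log2 intensities were 6.51 ± 0.40 with Z16078526 and 7.53 ± 0.17 with DMSO (SD, n = 4 each). Gadd45b was 2.02-fold lower (log2 difference -1.02 ± 0.21, adjusted p = 0.0219).

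**Figure D3:**
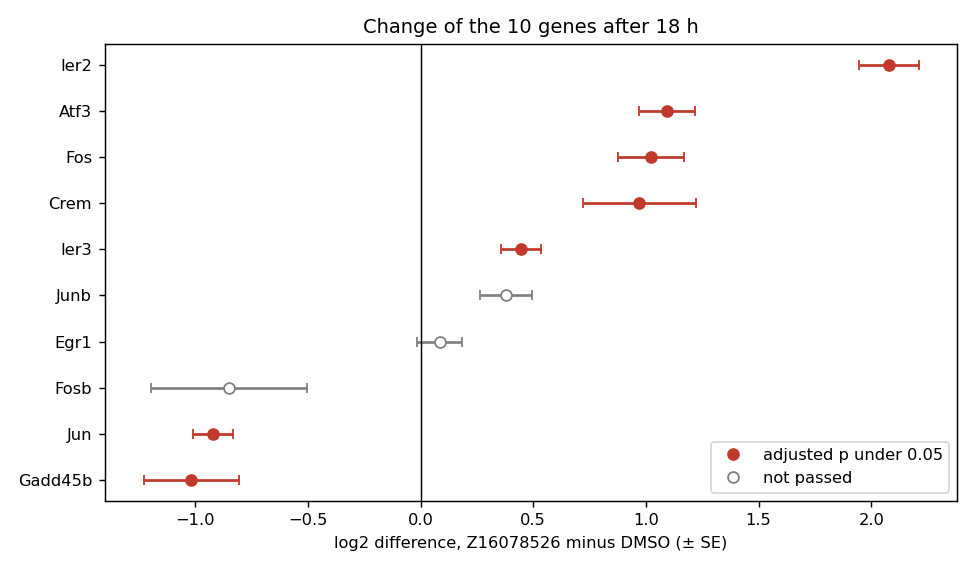
Log2 difference, Z16078526 minus DMSO (horizontal axis), of the 10 genes, with bars of ± SE from limma (n = 4 arrays per group). Filled points passed an adjusted p of 0.05: Ier2, Atf3, Fos, Crem and Ier3 to the right of 0, and Jun and Gadd45b to the left.

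In 9 of the 10 genes the groups did not overlap, 6 with Z16078526 higher and 3 with it lower, where 19.8% of all genes and 38.4% of the 8544 above the floor did not overlap. Of the 7 called genes, 6 changed over 1.5-fold, and Ier3 did not. The SD between arrays was larger with Z16078526 than with DMSO in 8 of the 10 genes, in a range of 0.07 to 0.54 with Z16078526 and 0.08 to 0.47 with DMSO on the log2 scale. Among the Z16078526 arrays, array 1 was the highest for 0 of the genes and the lowest for 4, while arrays 3 and 4 were each the highest for 4 and the lowest for 2.

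With any 1 of the 8 arrays left out, Ier2, Atf3, Fos and Jun passed each time, with adjusted p up to 0.00314, 0.0124, 0.0217 and 0.00746. Ier3 lost its call without Z16078526 array 4 (adjusted p = 0.0537). Gadd45b lost it without Z16078526 array 2 (0.0507) or without any 1 of the DMSO arrays (0.0528 to 0.0654). Crem was called in 1 of the 8 fits, that without Z16078526 array 1 (0.0212), and not without any other array (0.0555 to 0.126). Its differences in the 8 fits were 0.83 to 1.15, and those of Gadd45b -1.15 to -0.89. Across the 8 fits 5 to 7 of the 10 genes were called.

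**Figure D4:**
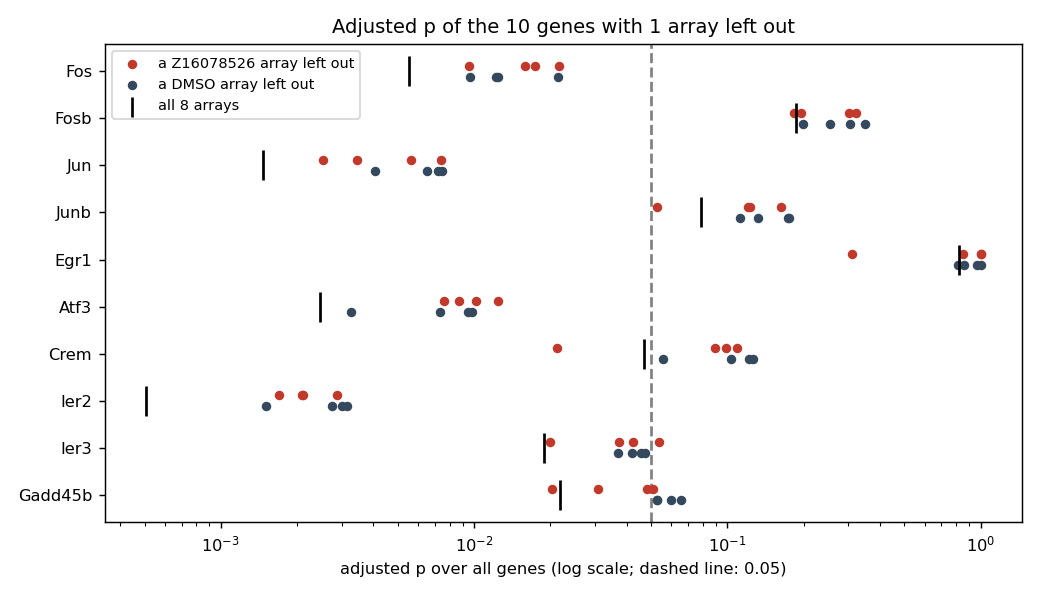
Adjusted p over all genes (horizontal log axis) of the 10 genes with 1 array left out, as points for the left-out Z16078526 or DMSO arrays, and with all 8 arrays, as black ticks. The dashed line is 0.05. Points of Crem, Gadd45b and Ier3 lie on both sides of it, and those of Ier2, Atf3, Fos and Jun lie below it.

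Other immediate early genes did not share a direction, and more were called lower than higher. Of 47 measured, 4 rose and 8 fell, 25.5% against 15.2% of all genes, and the median log2 difference was -0.01. Among the 37 of them above the floor on every array of a group, 32.4% passed, against 29.4% of all such genes. The risers were Maff (1.95-fold, and 1.40-fold with the mean of its probes), a small MAF factor, Ccn1 (1.82-fold), a matrix-associated signalling protein, Plk3 (1.35-fold), a stress-responsive kinase, and Zfp36 (1.33-fold), which promotes decay of AU-rich messages. Egr2, the EGR family factor, was 2.25-fold lower, and Errfi1, a feedback inhibitor of the EGF receptor, 1.66-fold lower. Zfp36l1, a relative of Zfp36, was 1.49-fold lower (1.25-fold with the mean of its probes) and Rhob, a small GTPase gene, 1.45-fold lower. The call of Plk3 ended without Z16078526 array 1, 2 or 3 or DMSO array 1, 2 or 3 (adjusted p 0.0639 to 0.108), and with robust variance (0.0606). Nr4a1, Btg2, Egr4 and Ptgs2 lay at the floor on all 8 arrays. With genes not above 16 on at least 4 arrays left out, 5 of the list were higher and 11 lower. With those not above 50 left out, 6 were higher and 11 lower, and with robust variance 3 were higher and 9 lower.

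Of 22 other genes known as cAMP and CREB targets, 2 rose and 1 fell, 13.6% against 15.2% of all genes, with a median log2 difference of 0. Among the 11 above the floor on every array of a group, 27.3% passed, against 29.4% of all such genes. Of the 22, robust variance and either filter on dim genes gave 2 higher and 3 lower. Ucp1, which lets brown fat mitochondria release heat, rose 2.59-fold, at mean log2 intensities of 6.25 with Z16078526 and 4.87 with DMSO, and with a floor of 50 it rose 1.52-fold (adjusted p = 0.0242). Pde4d, a cAMP phosphodiesterase, rose 1.70-fold, and its call ended without Z16078526 array 1, 2 or 3 or DMSO array 1, 2 or 4 (adjusted p 0.0647 to 0.0947) and with the mean of its probes (log2 difference 0.36, adjusted p = 0.182). Rgs2, a regulator of G protein signalling, was 1.42-fold lower. Nr4a1, Pde4b, Gem, Dio2 and Vgf lay at the floor on all 8 arrays.

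In the AP-1, ATF and CREB family with its coactivators, 2 of 26 measured rose and 3 fell (19.2%), with a median log2 difference of 0. Among the 19 above the floor on every array of a group, 26.3% passed, against 29.4% of all such genes. Maff rose 1.95-fold, and Ddit3, the stress factor CHOP, 1.44-fold. Atf6b, a membrane-bound ATF of the endoplasmic reticulum, was 1.67-fold lower, the related Creb3l2 1.53-fold lower, and Atf5 1.45-fold lower. The call of Ddit3 ended without any 1 of the Z16078526 arrays or without DMSO array 1 or 3 (adjusted p 0.0516 to 0.0782), and that of Creb3l2 with the mean of its probes (0.0524). Among genes above 16 on at least 4 arrays the same list had 5 higher and 5 lower.

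Of 20 measured kinases and factors upstream of these genes, 3 rose and 6 fell, 45% against 15.2% of all genes, with a median log2 difference of -0.01. Among the 17 above the floor on every array of a group, 52.9% passed, against 29.4% of all such genes. Map2k1, which encodes the ERK-activating kinase MEK1, rose 1.82-fold, while Map2k2, which encodes its relative MEK2, was 1.18-fold lower. Mapk8, the gene for the kinase JNK1 that phosphorylates Jun protein, rose 1.45-fold, and Map2k4, an activator of JNK, 1.33-fold. Camk2b, a calcium-dependent kinase, was 3.54-fold lower, Map2k3, an activator of p38 kinase, 1.38-fold lower, and Prkaca, a catalytic subunit of protein kinase A, 1.39-fold lower. The call of Mapk8 ended without Z16078526 array 2 or 4 or DMSO array 2, 3 or 4 (adjusted p 0.0521 to 0.0665), and that of Map2k2 with the mean of its probes (0.489).

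Of 15 measured MAP kinase phosphatases and Sprouty feedback genes, which dampen the kinase signal upstream of Fos and Egr1, 0 passed in limma, against 15.2% of all genes. Only 10 of them were above the floor on every array of a group, where 29.4% of all such genes passed. Dusp9 and Spry2 lay at the floor on all 8 arrays. At an unadjusted p under 0.05, 1 was higher and 0 lower, and 1 was called higher with either filter on dim genes or with robust variance.

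Of 17 genes of the GADD45 family and of p53 targets, 2 rose and 2 fell (23.5%), with 1 to 6 called when 1 array was left out. Among the 15 above the floor on every array of a group, 26.7% passed, against 29.4% of all such genes. With genes not above 16 on at least 4 arrays left out, 5 of the list were higher and 2 lower, and with those not above 50 left out, 6 were higher and 2 lower. Trp53inp1, a p53-induced gene, rose 1.28-fold (1.49-fold with the mean of its probes), and Gadd45a, of the same family as Gadd45b, rose 1.37-fold, where Gadd45b fell. Cdkn1a, the gene for the cell cycle inhibitor p21, was 1.28-fold lower (1.16-fold with the mean of its probes) and Zmat3 1.23-fold lower. Trp53inp1 passed with any 1 array left out. The call of Gadd45a ended without Z16078526 array 2 or 4 or any 1 of the DMSO arrays (adjusted p 0.0657 to 0.0852), that of Cdkn1a without Z16078526 array 2 or DMSO array 1, 2 or 3 (0.0545 to 0.0561), and that of Zmat3 without Z16078526 array 2 or 4 or DMSO array 1, 2 or 3 (0.0536 to 0.0604) or with robust variance (0.0522).

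Of 17 NF-kB feedback and target genes, 2 rose and 3 fell (29.4%), with 3 to 5 called when 1 array was left out. Among the 14 above the floor on every array of a group, 35.7% passed, against 29.4% of all such genes. Nfkbiz, a nuclear regulator of NF-kB, rose 1.46-fold, and the mitochondrial dismutase gene Sod2 1.13-fold. Ccl2, a chemokine, was 1.76-fold lower, Tnip1, an inhibitor of NF-kB signalling, 1.55-fold lower, and Rela, the p65 subunit, 1.49-fold lower. The call of Sod2 ended without Z16078526 array 2 or 4 or DMSO array 3 (adjusted p 0.0510 to 0.0561). That of Ccl2 ended without Z16078526 array 2, 3 or 4 or DMSO array 2, 3 or 4 (0.0929 to 0.105) and with a floor of 50 (0.0528).

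Of 16 genes known as AP-1 targets, 1 rose and 5 fell, 37.5% against 15.2% of all genes, with a median log2 difference of 0 and 2 to 5 called when 1 array was left out. Among the 11 above the floor on every array of a group, 54.5% passed, against 29.4% of all such genes. The median log2 difference of these 11 was -0.42, against 0.02 for all such genes. Hmox1, heme oxygenase, rose 1.62-fold. Fst, the activin antagonist follistatin, was 2.19-fold lower, Mmp9, a matrix protease, 1.76-fold lower, Timp1, a protease inhibitor, 1.69-fold lower, and Tgfb1 1.34-fold lower. Timp1 and Hmox1 passed with any 1 array left out. The call of Fst ended without Z16078526 array 4 or DMSO array 1, 2 or 3 (adjusted p 0.0533 to 0.0639), and that of Mmp9 without Z16078526 array 1, 2 or 4 or DMSO array 1, 2 or 3 (0.0594 to 0.0802) or with a floor of 50 (log2 difference -0.20, adjusted p = 0.309). Tgfb1 kept its call without DMSO array 3 and lost it without any other array (0.0506 to 0.0791).

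Of 15 measured decay factors of AU-rich messages, a class that includes those of Fos and Jun, 1 rose (Zfp36) and 2 fell (Zfp36l1, and Tob2 at 1.59-fold lower), 20% against 15.2% of all genes. Among the 11 above the floor on every array of a group, 27.3% passed, against 29.4% of all such genes. Either filter on dim genes gave 2 higher and 4 lower. The call of Tob2 ended without Z16078526 array 2 or 3 or DMSO array 1, 2 or 4 (adjusted p up to 0.0572).

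**Figure D5:**
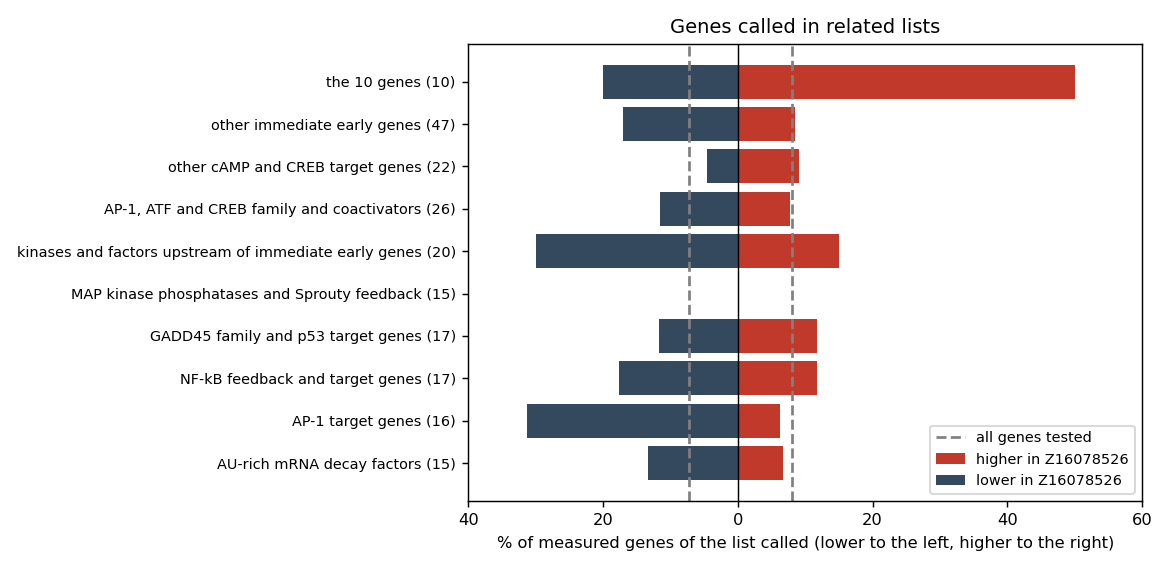
Share of measured genes called higher (right) or lower (left) with Z16078526, in %, for the 10 genes and the related lists, with the number of genes measured in parentheses. Dashed lines mark the shares of all genes tested, 7.97% higher and 7.19% lower.

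All 8 measured fat cell genes (Adipoq, Fabp4, Plin1, Cidea, Pparg, Lipe, Ucp1 and Cebpa) were above the floor on all 8 arrays. With DMSO, Ucp1 was dim, at a mean log2 intensity of 4.87. Of the 8 genes, 3 rose (Fabp4, Ucp1 and Cidea) and 1 fell (Pparg, 1.35-fold lower, and 1.83-fold lower with the mean of its probes). Ptprc, Lyz2 and Itgam of the 5 measured leukocyte markers lay at the floor on all 8 arrays, as did Cdh5, Emcn, Kdr and Vwf of the 6 endothelial markers and Ckm and Myod1 of the 6 muscle markers. Of 7 preadipocyte and fibroblast markers, 0 rose and 2 fell, the matrix genes Dcn (2.15-fold lower) and Col3a1 (1.41-fold lower, adjusted p = 0.0345), of which Col3a1 lost its call without Z16078526 array 2 or 3 or any 1 of the DMSO arrays (0.0657 to 0.0823). With the mean of its probes Col3a1 was 2.45-fold lower (log2 difference -1.29, adjusted p = 0.00315). The summed intensity of the 7 markers was 4651 to 6002 with Z16078526 and 5935 to 6749 with DMSO. Thy1 lay at the floor, and 6 of the 7 were above it on all 8 arrays. Of the leukocyte markers 0 passed in limma, also at an unadjusted p under 0.05. Tek of the endothelial markers was 1.16-fold lower, close to the floor, and lost its call at a floor of 50, with genes not above 16 on at least 4 arrays left out, and with robust variance. Des of the muscle markers was well above the floor, at mean log2 intensities of 7.79 with Z16078526 and 8.27 with DMSO. Des was 1.39-fold lower and lost its call without Z16078526 array 2 or 3 or any 1 of the DMSO arrays (0.0573 to 0.104). The part of these cells in the changes above was not tested, and fewer cells of a type cannot be told apart from less RNA per cell.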

How the data were processed

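Expression was measured by array in 8 samples, 4 with Z16078526 and 4 with DMSO. The authors deposited background-subtracted, between-array normalized intensities on a linear scale. The submitters' processing notes name GenomeStudio. Its settings are not given. Intensities were set to at least 16 and log2 was taken. Probes were named through the platform's probe table (23978 of 25697 with 1 symbol, 1719 with none), with symbols checked against RefSeq. Per gene, the probe with the highest mean intensity was used, and all probes were also fitted singly. Groups were compared with limma 3.58.1 in R 4.3.3 (two-sided, variance trend, Benjamini-Hochberg adjustment over all genes). In data simulated for this comparison on 16593 genes, 83% of changes of 1 and 54% of changes of 0.5 on the log2 scale were recovered. Among the genes left unchanged there were 9 false calls. The changes were placed only in genes with a higher DMSO signal than Ier2, Crem, Fosb or Atf3 had. Recovery at such dim signal was not tried. The number of arrays limits the precision. Each array had 13528 to 13564 probes above 16. Across genes, r between arrays was 0.9929 to 0.9952 within Z16078526, 0.9959 to 0.9966 within DMSO and 0.9888 to 0.9925 between groups.

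The 10 genes and the lists were chosen with earlier results of these data known. All 10 genes are named. Of each related list, up to 4 called genes with the smallest p in each direction are named. Alternatives were scaling, a second quantile normalization, floor, pseudocount, filters on dim probes, variance models, array weights, a replicate block, other probe rules, other thresholds and each array left out. Leaving out genes at the floor on all arrays was added after seeing the data. Shares among genes above the floor on every array of at least 1 group were added after seeing the data.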

Additional observations from a re-analysis of the deposited data

Results flagged for a closer look

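Among 25 groups of 4 arrays (14 probes, without groups that had several arrays at the floor), a single array stood apart from the other 3 in 1, and chance gives about 1 in 20. It was DMSO array 2 for Ier3, with a log2 value of 11.5 (intensity 2987), the lowest of the group. Without DMSO array 2, Ier3 passed (adjusted p = 0.037), in a range of 2.68e-05 to 0.0537 over 20 alternatives. With the replicate block, not among the 20, Ier3 did not pass in limma (adjusted p = 0.0601).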

How the results depend on the processing

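Of the 10 genes, 7 were called in the reported fit and 4 at an adjusted p under 0.01 (Ier2, Fos, Jun and Atf3). Over 22 alternatives 4 to 9 were called, and no result named here reversed. The count of all called genes was 2516, and it was 884 with a change over 1.5-fold and 1194 at an adjusted p under 0.01. With every probe fitted singly it was 3258, and 4994 among probes above 16 on at least 4 arrays, 1251 over 1.5-fold and 1350 at the stricter threshold. It was 2068 to 3311 with 1 array left out, the lowest without Z16078526 array 2 (2068) and next without DMSO array 1 (2154). A floor of 50 ended the call of Crem (log2 difference 0.52, adjusted p = 0.186, and 0.00354 to 0.186 over 19 alternatives, with 0.193 under the replicate block). The labels number the samples 1 to 4 in both groups. Over all genes, deviations from the group means of same-numbered samples correlated with r of -0.022, 0.016, -0.095 and 0.077. Such correlations cannot show whether the samples were paired, and the labels do not state it. With the replicate block 1123 genes and 1196 probes were called. Of 58 named genes and probes the block ended 25 calls, among them those of Ier3, Crem and Gadd45b, and gave 1, to Junb. Signals near the floor, as those of Ier2 with DMSO and of Fosb, limit how large a difference can be measured.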
